A study of Saccharomyces cerevisiae and Saccharomyces paradoxus with 16 samples.

Results

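Very long cryptic unstable transcripts (CUTs) were taken as the CUTs whose interval, Stop minus Start, was 1500 nt or more in the deposited CUT tables of 4 yeast strains. They were chosen by this length alone, and the length itself came from the rrp6Δ and WT coverage that is compared here. The rule selected 482 of 9377 CUTs (5.14%). They were 81 of 2055 CUTs in S288c, 124 of 2393 in Sigma1278b, 120 of 2268 in JAY291 and 157 of 2661 in N17.

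CUTs are capped RNA polymerase II transcripts whose termination depends on the Nrd1-Nab3-Sen1 complex, after which the TRAMP complex adds a short poly(A) tail and the nuclear exosome degrades them. Rrp6 is a 3′ to 5′ exonuclease of the nuclear exosome, and its loss lets CUTs build up to a level that sequencing can detect. Nrd1-dependent termination acts mostly close to the promoter, so most CUTs are short, and a CUT that is long enough to span a gene can cross its coding sequence from the opposite strand or in sense.

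The study made strand-specific RNA-seq libraries from poly(A) RNA of rrp6Δ and WT cells grown to mid-log phase in rich glucose medium, 2 libraries for each genotype of each strain and 16 in all. S288c, Sigma1278b and JAY291 are Saccharomyces cerevisiae, a laboratory strain, a strain used for filamentous growth and a bioethanol strain, and N17 is Saccharomyces paradoxus. CUTs were called with a hidden Markov model on the rrp6Δ over WT fold change along each strand. In S288c the rrp6Δ strain was rrp6::KanMX his3Δ1 leu2Δ0 ura3Δ0 met15Δ0, and the WT strain was his3Δ1 lys2Δ0 leu2Δ0 ura3Δ0. In Sigma1278b the rrp6Δ strain was rrp6::KanMX his3Δ1 leu2Δ0 ura3Δ0, and the WT strain was ura3-52 leu2::hisG his3::hisG. In JAY291 the rrp6Δ strain was rrp6::KanMX and the WT strain had no listed marker. In N17 the rrp6Δ strain was rrp6::NatMX with HO::lox-Kan-lox, and the WT strain carried HO::lox-Kan-lox. In S288c and Sigma1278b the auxotrophic markers differed between rrp6Δ and WT, so their part and that of the RRP6 deletion cannot be told apart. Mating type, which the study lists with the genotypes, was not compared here.

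For each CUT the tables hold 1 average coverage for rrp6Δ and 1 for WT, which the authors had averaged over the nucleotides and over both replicates. No spread between replicates could be had, so no difference below was tested, and the coverage ratio, (rrp6Δ + 1) / (WT + 1), is a description of how the members were called. The depth behind each value is not in these tables. In bulk libraries, fewer cells that make a transcript and less RNA per cell cannot be told apart.

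In S288c, Sigma1278b and N17 the CUTs of chromosome XIII are listed under the label chrXII, so that label holds a mixture. Coding genes were therefore assigned in S288c on the 14 other chromosomes only, where 72 of the 81 long CUTs lie, and each strain's overlap counts are also given without the label. JAY291 is listed by contig.

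The sequences shown for S288c are stretches with Nrd1 and Nab3 motifs in members that the results turn on, since these proteins end CUT transcription. The motifs searched were GTAA and GTAG for Nrd1 and TCTT and CTTG for Nab3, in DNA letters and on the CUT's own strand. TCTTG holds a match to each Nab3 motif, with 3 letters shared. For 5 such CUTs the first 30-base window that reaches the CUT's highest number of matches is printed 5′ to 3′ from the R64 reference, with the matched letters in capitals.
CUT1734 (over LYS2, chrII:472613-472642, minus strand, 4 matches): aagggtgtTCTTGGTAGacatttttcCTTG
CUT1410 (antisense to TKL2, chrII:474433-474462, plus strand, 4 matches): tGTAGTAAttgattgTCTTttcagccCTTG
CUT1798 (antisense to ICL1, chrV:285234-285263, plus strand, 3 matches): cCTTGtcctattTCTTtacgccatttTCTT
CUT1973 (antisense to CSS1, chrIX:28206-28235, plus strand, 6 matches): cTCTTCTTtttttttatgTCTTGCTTGTAA
CUT1986 (over NRD1, chrXIV:174499-174528, minus strand, 2 matches): acaactaactcaccaatcaaggcTCTTCTT

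The gene named beside each sequence is that of the whole CUT and not of the printed window. The windows of CUT1973 and CUT1986 lay outside the coding sequences of CSS1 (23119 to 26106) and NRD1 (172588 to 174315). The window of CUT1798 lay partly outside that of ICL1. The windows began 1344 bases from the CUT's start in CUT1734, 118 bases in CUT1410, 166 bases in CUT1798, 3786 bases in CUT1973 and 137 bases in CUT1986. As many matches were held by 9 of the 4367 windows of CUT1734, 6 of 2461 in CUT1410, 62 of 2359 in CUT1798, 3 of 4160 in CUT1973 and 138 of 2162 in CUT1986. Overlapping windows can count the same matches, and in CUT1798 and CUT1986 the printed window is 1 of many, so its place does not show where the motifs are densest. Windows with at least 2 matches made up 11.4% of all 30-base windows on both strands of the 14 chromosomes, and those with at least 3 made up 2.66%. They were present in 72 and 69 of the 72 long CUTs and in 1543 and 1245 of the 1652 other CUTs. Windows with at least 4 matches made up 0.537% of all windows. Such a window was present in 53 of 72 long CUTs (73.6%) and in 655 of 1652 other CUTs (39.6%), and a long CUT holds more windows than a short one. Windows with at least 6 matches made up 0.0176% of all windows and were present in 8 of 72 long CUTs and 48 of 1652 other CUTs.

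Counted per length, the motifs were about as dense in long CUTs as in the rest. S288c long CUTs held 25.5 matches per kb on their own strand and 15.98 per kb on the opposite strand, and the other S288c CUTs held 27.5 per kb on their own strand and 15.9 per kb on the opposite one. The density over both strands of the 14 chromosomes was 19.9 matches per kb. Both classes of CUT were thus above the chromosome average on their own strand and below it on the opposite strand. That average was not matched for the strand of genes, and 56 of the 72 long CUTs ran antisense to at least 50% of a coding sequence. The Nab3 motifs made most of the difference between strands in long CUTs, with 17.4 against 9.73 matches per kb, while the Nrd1 motifs stood at 8.08 against 6.25 matches per kb. The first 300 nt of the long CUTs held 26.7 matches per kb and the last 300 nt held 26.1 per kb. In single long CUTs the density ranged between 11.8 and 41.7 matches per kb. CUT1734 and CUT1986, which run over LYS2 and NRD1 on the sense strand, held 12.3 and 14.1 matches per kb. The antisense CUT1798 held 19.3 matches per kb, below the chromosome average, and the antisense CUT1410 and CUT1973 held 25.3 and 28.6 per kb. G and C made up 40.9% of the long CUTs and 38.9% of the other CUTs.

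Coverage of long CUTs was higher than that of other CUTs in both genotypes, while the ratio was not. In S288c the median coverage of long CUTs was 6.28 in rrp6Δ and 0.938 in WT, and that of other CUTs was 5.53 in rrp6Δ and 0.727 in WT. In Sigma1278b it was 8.15 in rrp6Δ and 1.04 in WT for long CUTs, and 6.07 in rrp6Δ and 0.633 in WT for the rest. In JAY291 it was 10.6 in rrp6Δ and 1.18 in WT for long CUTs, and 7.40 in rrp6Δ and 0.686 in WT for the rest. The order of long above other held in all 4 strains and in both genotypes, but the quartiles overlapped throughout. N17 stood apart, with medians of 11.8 in rrp6Δ and 2.12 in WT for long CUTs, and 6.49 in rrp6Δ and 0.708 in WT for other CUTs. The upper quartile of WT coverage was 16.1 in N17 long CUTs and 2.04 in S288c long CUTs. Coverage is set within each strain by the authors' scaling, so levels are compared between strains only as they were deposited. Poly(A) RNA for N17 came from Dynabeads alone, while each value of the other strains averages a Dynabeads and an Oligotex library, so kit and strain cannot be told apart between N17 and the rest.

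**Figure D1:**
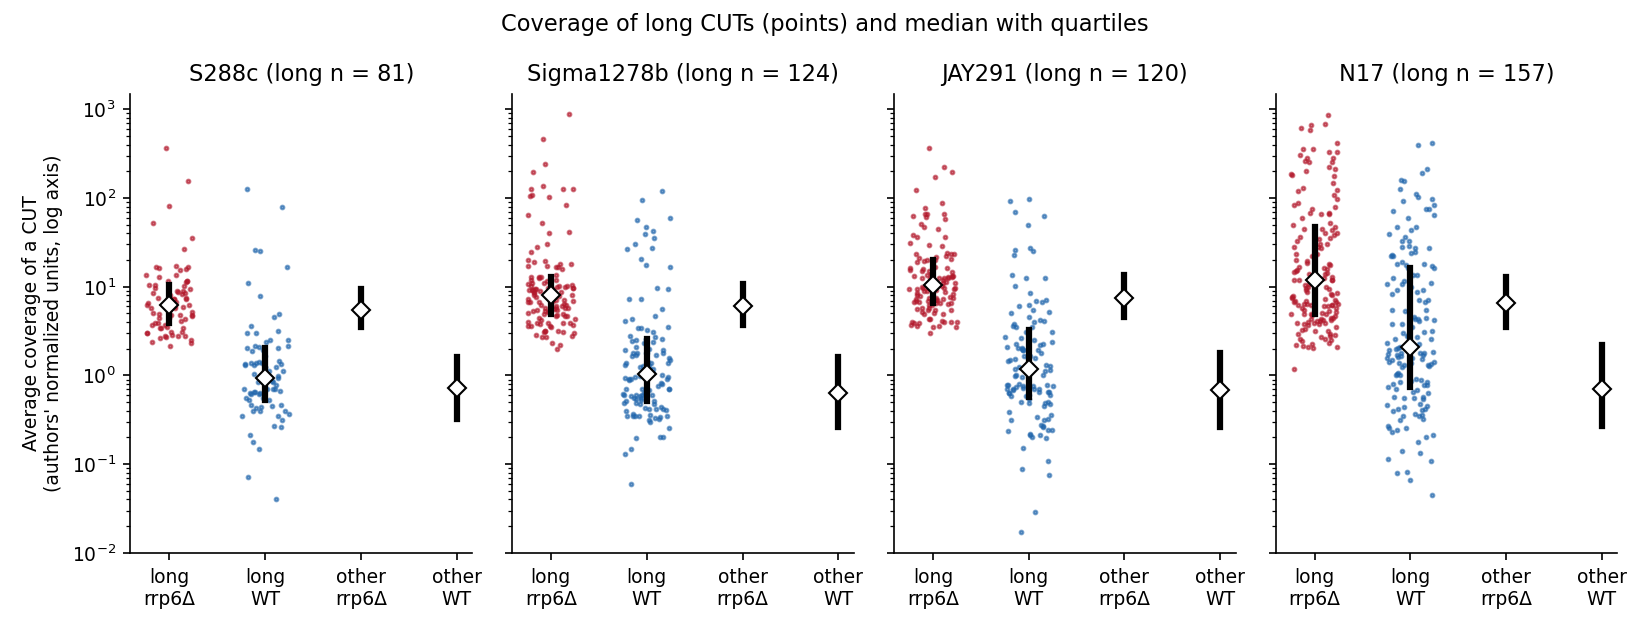
Average coverage of each long CUT (points) in rrp6Δ and WT, on a log axis, by strain, with white diamonds for medians and black bars for quartiles, and the same for all other CUTs. WT coverage of long CUTs has a median of 2.12 in N17 and between 0.938 and 1.18 in the other strains.

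No long CUT had a WT coverage of 0 in any strain. Among other CUTs, 64 in S288c, 42 in Sigma1278b, 87 in JAY291 and 139 in N17 were listed at 0 in WT. The average of a long CUT covers more nucleotides, so a 0 needs a longer stretch without reads. The lowest WT coverage among long CUTs was 0.0401 in S288c, 0.0597 in Sigma1278b, 0.0171 in JAY291 and 0.0449 in N17.

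The median ratio of long CUTs was 3.04 in S288c (95% order-statistic interval 2.84 to 3.34), against 3.36 for the other CUTs (3.30 to 3.41). In Sigma1278b it was 3.52 (3.30 to 3.88) for long and 3.65 (3.56 to 3.72) for other CUTs, and in JAY291 it was 4.22 (3.77 to 4.78) for long and 4.34 (4.25 to 4.46) for other CUTs. In N17 it was 2.92 (2.71 to 3.21) for long and 3.57 (3.47 to 3.65) for other CUTs. The intervals of long and other CUTs were apart in N17, overlapped barely in S288c and overlapped fully in Sigma1278b and JAY291. They describe how closely the median over the CUTs of a strain is placed, and not the spread of single CUTs or of replicates. The CUTs of a strain share their libraries, so the overlap of intervals is no test of a difference.

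A ratio of 4 or more was reached by 22 of 81 long CUTs in S288c (27.2%), where 31.7% of all CUTs reached it. It was reached by 47 of 124 in Sigma1278b (37.9%), against 41.1% of all CUTs, and by 64 of 120 in JAY291 (53.3%), against 57.5% of all CUTs. These 3 shares lay near those of all CUTs. In N17 38 of 157 long CUTs (24.2%) reached it, against 40.8% of all CUTs. A ratio under 2 was found in 25 of 157 long CUTs of N17, against 2 in S288c, 2 in Sigma1278b and none of the 120 in JAY291. Among all CUTs such a ratio was found in 292 of 2661 in N17 (10.97%), 20 of 2055 in S288c (0.973%), 16 of 2393 in Sigma1278b (0.669%) and 5 of 2268 in JAY291 (0.220%). The higher share in N17 was thus present among its CUTs of any length, with 15.9% of its long CUTs and 10.7% of its other CUTs under 2.

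Within the long CUTs the ratio hardly followed length. Spearman's rho between length and ratio was 0.05 over 81 CUTs in S288c, 0.08 over 124 in Sigma1278b, 0.04 over 120 in JAY291 and -0.04 over 157 in N17, and the CUTs of a strain share their libraries. Coverage in rrp6Δ rose with coverage in WT, with a rho of 0.70 in S288c, 0.76 in Sigma1278b, 0.71 in JAY291 and 0.92 in N17. Over all CUTs of the same strains this rho was 0.78, 0.74, 0.76 and 0.73. CUTs were called on the fold change between these coverages, which in part ties one to the other. Above 2500 nt the median ratio was 2.96 in S288c (n = 17), 3.41 in Sigma1278b (n = 16), 4.12 in JAY291 (n = 14) and 2.80 in N17 (n = 24). From 1500 nt to below 2000 nt it was 2.95, 3.54, 4.39 and 3.05 in the same strains.

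**Figure D2:**
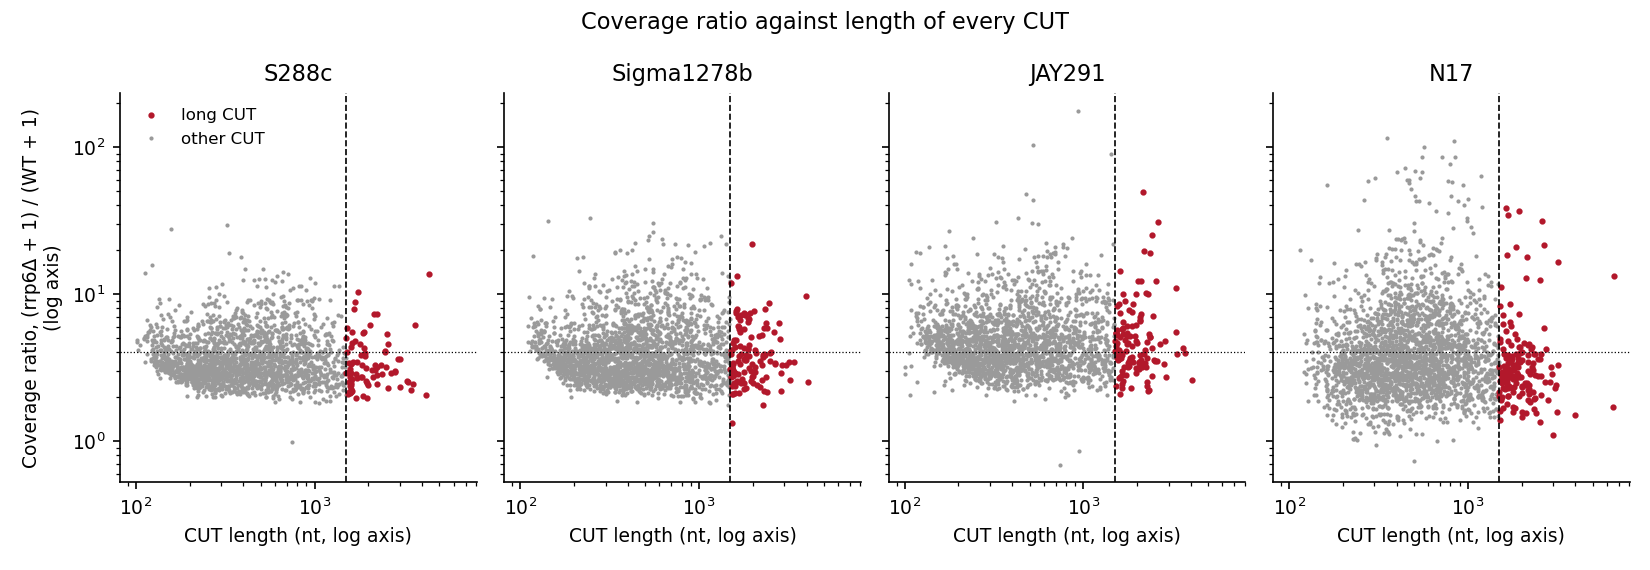
Coverage ratio of every CUT against its length, both on log axes, with long CUTs in red right of the dashed line at 1500 nt and other CUTs in grey. The dotted line marks a ratio of 4, which 24.2% of long CUTs reached in N17 and 53.3% in JAY291.

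Most long CUTs of S288c ran antisense over the coding sequence of a gene. Of the 72 on the 14 chromosomes, 56 (77.8%) covered at least 50% of a coding sequence on the opposite strand, where 22.6% of all CUTs and 20.2% of the other CUTs did. A whole coding sequence was covered by 32 long CUTs (44.4%) and by 80 of 1652 other CUTs (4.84%), and 4 long CUTs covered 2 or more genes whole, against 1 of the other CUTs. A long interval has more room to hold a gene, with a median of 1857 nt in long and 392 nt in other CUTs, so these shares follow in part from the rule. Any base antisense to a coding sequence was present in 63 of 72 long and 987 of 1652 other CUTs.

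Most of the antisense CUTs began past the end of the gene used to place them. For each of the 56 this was the gene covered over the highest percentage. The CUT's start lay downstream of its last coding base in 42 and inside its coding sequence in 14. A CUT that covers a gene whole starts at or past its end, so the count of 42 follows in part from this choice. CUT749, placed by YDR476C, which it covered whole, began inside JIP4, which it covered over 54.5%. The median start was 72 bp past the last coding base (quartiles 3.25 to 289 bp). In 43 of 56 the CUT ran on past the gene's first coding base, by a median of 373 bp over all 56, and 32 spanned the gene from end to end. Among the 334 other CUTs antisense to at least 50% of a gene, 216 started past the gene's end, at a median of 32 bp, and 79 spanned the gene.

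**Figure D3:**
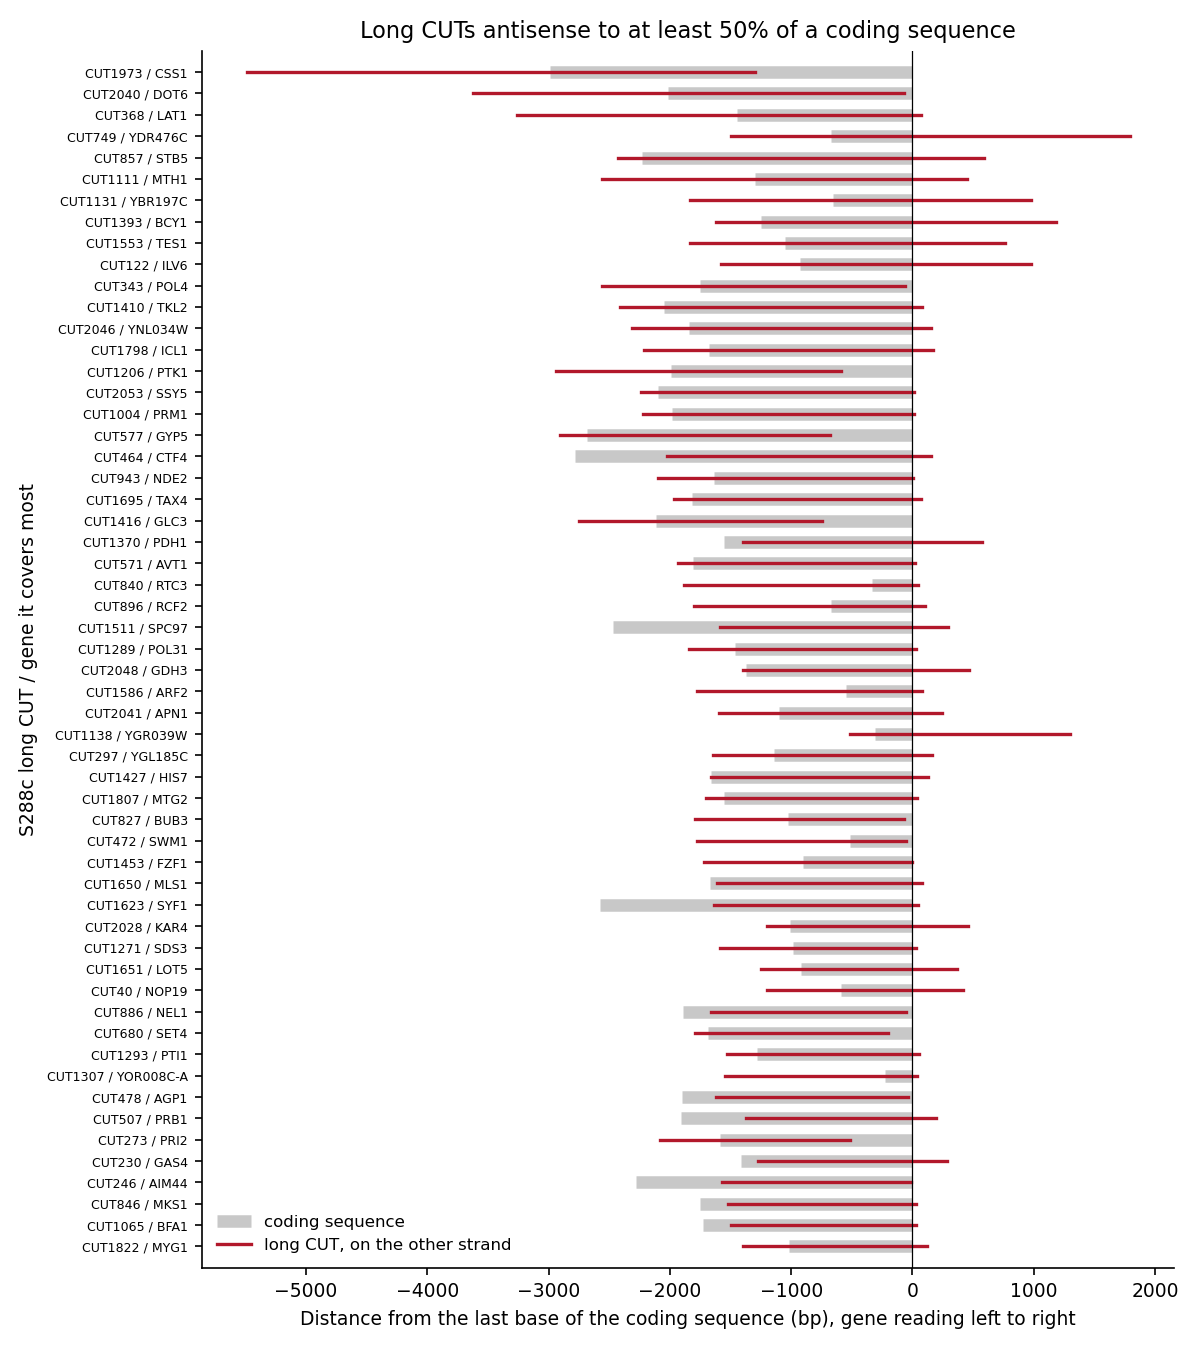
The 56 S288c long CUTs antisense to at least 50% of a coding sequence (red lines), over the gene each covers over the highest percentage (grey bars). Positions are in bp from the last coding base, with each gene reading left to right and the CUT reading right to left. In 42 of the 56 the red line starts right of 0, and in 43 it passes the gene's left end.

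In all, 69 of 5010 coding genes on the 14 chromosomes (1.38%) were covered antisense over at least 50% by a long CUT, and 8.22% were covered so by any CUT. In the gluconeogenesis and glyoxylate cycle list, long CUTs lay antisense over 2 of 10 genes, and CUTs of any length over 3. Both of the 2 were glyoxylate cycle enzymes. ICL1, isocitrate lyase, lay on chromosome V at 285241 to 286914 and was covered whole by CUT1798, which was 2388 nt long, had a coverage of 15.96 in rrp6Δ and 4.94 in WT, and a ratio of 2.86. MLS1, malate synthase, lay on chromosome XIV at 406358 to 408022 and was covered over 96.7% by CUT1650, which was 1687 nt long, had a coverage of 11.7 in rrp6Δ and 1.65 in WT, and a ratio of 4.79. Both CUTs started past the end of the gene, at 172 bp for ICL1 and 77 bp for MLS1.

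In the pentose phosphate pathway list, 1 of 10 genes was covered antisense, by a long CUT. TKL2, a transketolase, lay on chromosome II at 474392 to 476437 and was covered whole by CUT1410, 2490 nt long, with a coverage of 8.51 in rrp6Δ and 1.38 in WT and a ratio of 3.999. CUT1410 began 76 bp past the end of TKL2 and ran 368 bp beyond its start codon.

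TKL2 and MLS1 are also the long members for which the study designed PCR primers, and these place the assay inside the CUT. The study chose these loci because their raw CUT calls were adjacent pieces with a gap, to decide whether such pieces should be merged. Its PCR on strand-specific cDNA was designed to give a product across the gap only if the CUT is a transcript that spans it. The outcome of that assay was not examined here. The primers are printed 5′ to 3′ in lower case, as designed, with the place of their match in R64.
TKL2 F1 (chrII:476033-476054, minus strand): ggcaatagcgcaggccaacttt
TKL2 R1 (chrII:475073-475094, minus strand): tgctgcaggagccgttaggtta
TKL2 R2 (chrII:474992-475013, plus strand): ttggtgcgttggaccatcctca
MLS1 F1 (chrXIV:407994-408015, minus strand): ttgctcaaatcagtgggcgtcg
MLS1 R1 (chrXIV:407892-407913, plus strand): aattcgcgctggccgctaagta
MLS1 R2 (chrXIV:406552-406574, plus strand): agactcgggctcctatcatctgg
All 6 matched once inside a long CUT. Those of TKL2 spanned 1063 bp of CUT1410, beginning 677 bases into the CUT, and those of MLS1 spanned 1464 bp of CUT1650, beginning 85 bases into it.

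In the meiosis and sporulation list, 1 of 41 genes was covered antisense over at least 50% by a long CUT, and 4 by any CUT. It was GAS4, a glucanosyltransferase of the spore wall, covered over 90.0% by CUT230 with a coverage of 2.67 in rrp6Δ and 0.707 in WT and a ratio of 2.15. REC107, needed for meiotic recombination, was covered over 49.7% by CUT1553, just below the limit. CUT1553 also covered ESS1, a prolyl isomerase that acts on RNA polymerase II, and TES1, a peroxisomal acyl-CoA thioesterase, each whole. In the list of cell wall mannoproteins and flocculins, 1 of 15 genes, CSS1, was covered over 56.4% by CUT1973, and TIR4 was touched in sense over 4.85% by CUT1307.

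No gene was covered antisense by a long CUT among the 5 galactose genes, the 13 phosphate response genes, the 15 hexose transporter genes, the 7 a-cell genes and the 4 alpha-cell genes, while any CUT covered 1 phosphate response gene, 1 a-cell gene and 1 alpha-cell gene. Among the 19 genes of the exosome, TRAMP and Nrd1-Nab3-Sen1 list none was covered antisense, and NRD1 was covered in sense. Of the 9 loci with CUTs named in the study, TKL2 and MLS1 were covered antisense by long CUTs and NRD1 in sense. Of the 4 genotype markers on the 14 chromosomes, LYS2 was covered in sense and none antisense.

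LYS2, which encodes the aminoadipate reductase of lysine synthesis, lay under the longest member of S288c. CUT1734 was 4396 nt long, on the minus strand of chromosome II at 469590 to 473985, and held the whole LYS2 coding sequence (469748 to 473926) in sense. Its coverage was 13.7 in rrp6Δ and 0.0720 in WT, and its ratio of 13.7 was the highest among the 81, the next being 10.3. Its WT coverage was the second lowest of the 81. The WT strain carries lys2Δ0 and the rrp6Δ strain does not, so at this locus the RRP6 deletion and the LYS2 genotype cannot be told apart. CUT1410 antisense to TKL2 lay next to it, with 330 bp between the starts of both on opposite strands, and the effect of the deleted neighbour on CUT1410 was not tested. Without CUT1734 the median ratio of the other 80 was 3.02.

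Besides CUT1734, 8 S288c long CUTs covered at least 50% of a coding sequence in sense. NRD1, which encodes the RNA-binding subunit of the complex that terminates CUTs, was covered whole by CUT1986, with 81.1 in rrp6Δ and 26.0 in WT and a ratio of 3.04. NAB2, a nuclear poly(A)-binding protein whose own mRNA is known to be kept low by the exosome, was covered whole by CUT2000, with 156.7 in rrp6Δ and 79.1 in WT and a ratio of 1.97. RPL18B, a protein of the large ribosomal subunit, was covered whole by CUT2010, with 368 in rrp6Δ and 125.4 in WT and a ratio of 2.92. These members had the 3 highest WT coverages of the sense group, which spanned 0.0720 to 125.4, and the 54 members that were antisense only spanned 0.0401 to 25.3. GYP8, a GTPase-activating protein of vesicle transport, was covered whole by CUT1920, with 26.4 in rrp6Δ and 11.1 in WT and a ratio of 2.27.

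The 4 remaining sense genes were the short open reading frames RDT1, YIL012W, YHR173C and YKL183C-A, and their CUTs had WT coverages between 0.147 and 1.96. CUT1511 and CUT1651 were also antisense to SPC97, a gene of the spindle pole body, and LOT5. A WT coverage of 10 or more was found in 4 of the 9 sense members and in 1 of the 54 antisense members, CUT1973. The median WT coverage was 1.96 for sense and 0.847 for antisense members, and the median ratio was 3.04 for sense and 3.03 for antisense members. Among CUTs in sense over a gene, mRNA and CUT cannot be told apart by these tables.

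Among the longest S288c members, several crossed more than 1 gene. CUT368, 3332 nt on chromosome XIV, covered LAT1, the acetyltransferase of pyruvate dehydrogenase, and RNH201, the catalytic subunit of ribonuclease H2, both whole, with 3.12 in rrp6Δ and 0.627 in WT. CUT2040, 3558 nt on chromosome V, covered 96.7% of DOT6, a repressor of ribosome biogenesis genes, and 61.3% of PTC2, a protein phosphatase, with 2.98 in rrp6Δ and 0.641 in WT. CUT749, 3289 nt on chromosome IV, covered YDR476C whole and 54.5% of JIP4, with 4.40 in rrp6Δ and 1.12 in WT. These 3 had ratios between 2.43 and 2.55, below the median of all long CUTs of the strain.

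CUT857, 3023 nt on chromosome VIII, covered STB5, a transcription factor of NADPH-producing genes, whole, at 4.84 in rrp6Δ and 0.612 in WT. CUT1111, 3010 nt on chromosome IV, covered MTH1, a regulator of glucose-sensing and of hexose transporter genes, whole, at 6.08 in rrp6Δ and 2.04 in WT. The second longest, CUT1973, was 4189 nt long on chromosome IX, began inside CSS1 and had 52.7 in rrp6Δ and 25.3 in WT, a ratio of 2.04. The others among the 10 longest, CUT1729, CUT1635 and CUT2043, carried the chrXII label and were given no gene, and their lengths were 3636, 3479 and 2915 nt.

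The next 3 S288c ratios after CUT1734 belonged to members antisense to at least 50% of a gene, each with a WT coverage below the median of 0.938. CUT1807 covered MTG2, a GTPase of the mitochondrial ribosome, whole, with 16.1 in rrp6Δ and 0.652 in WT and a ratio of 10.3. CUT1623 covered 63.4% of SYF1, a splicing factor, with 11.3 in rrp6Δ and 0.400 in WT and a ratio of 8.78. CUT2028 covered KAR4, a transcription factor of mating, whole, with 7.21 in rrp6Δ and 0.0401 in WT, the lowest WT value of all S288c members, and a ratio of 7.89. It overlapped CUT1275 by 348 bp on the opposite strand of chromosome III, the only pair of long CUTs that overlapped in S288c, and CUT1275 had 7.32 in rrp6Δ and 0.147 in WT. CUT1789 lay antisense to 47.4% of FMP40 and 18.2% of FLC1, with 15.5 in rrp6Δ and 1.24 in WT, above that median, and a ratio of 7.35.

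The lowest ratios were 1.95 for CUT1370 antisense to PDH1, a gene of propionate breakdown, 1.97 for CUT2000 over NAB2, 2.01 for CUT2048 antisense to GDH3, a glutamate dehydrogenase, 2.04 for CUT1973 and 2.10 for CUT1947 under the chrXII label. All 5 had a WT coverage of at least 3.62, above the upper quartile of 2.04. CUT2048 had 16.7 in rrp6Δ and 7.82 in WT.

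Of the 72 members, 4 overlapped no coding gene, against 559 of 1652 other CUTs, whose shorter intervals have less room to meet one. Of the 72, CUT1139 was the only one within 20 kb of a chromosome end. It lay at 0.822 kb from the right end of chromosome I, with 6.28 in rrp6Δ and 0.843 in WT. Among other CUTs, 48 of 1652 lay that close. CUT633 covered the tRNA gene SUP56 in sense. CUT1823 and CUT610 overlapped no annotated gene, with ratios of 5.30 and 2.17.

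N17 held a cluster of long CUTs under the chrXII label. The label held 62 of the 157 N17 long CUTs, 39.5%, and 11.6% of the 534 CUTs under it were long. In the other strains with this label the long share was 2.72% in S288c (9 of 331) and 3.76% in Sigma1278b (14 of 372), and in JAY291 contigs of chromosome XII gave 10 of 191 and those of chromosome XIII 6 of 178. Without the label N17 had 95 long CUTs, fewer than the 110 left in Sigma1278b and the 104 left in JAY291 without both chromosomes.

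**Figure D4:**
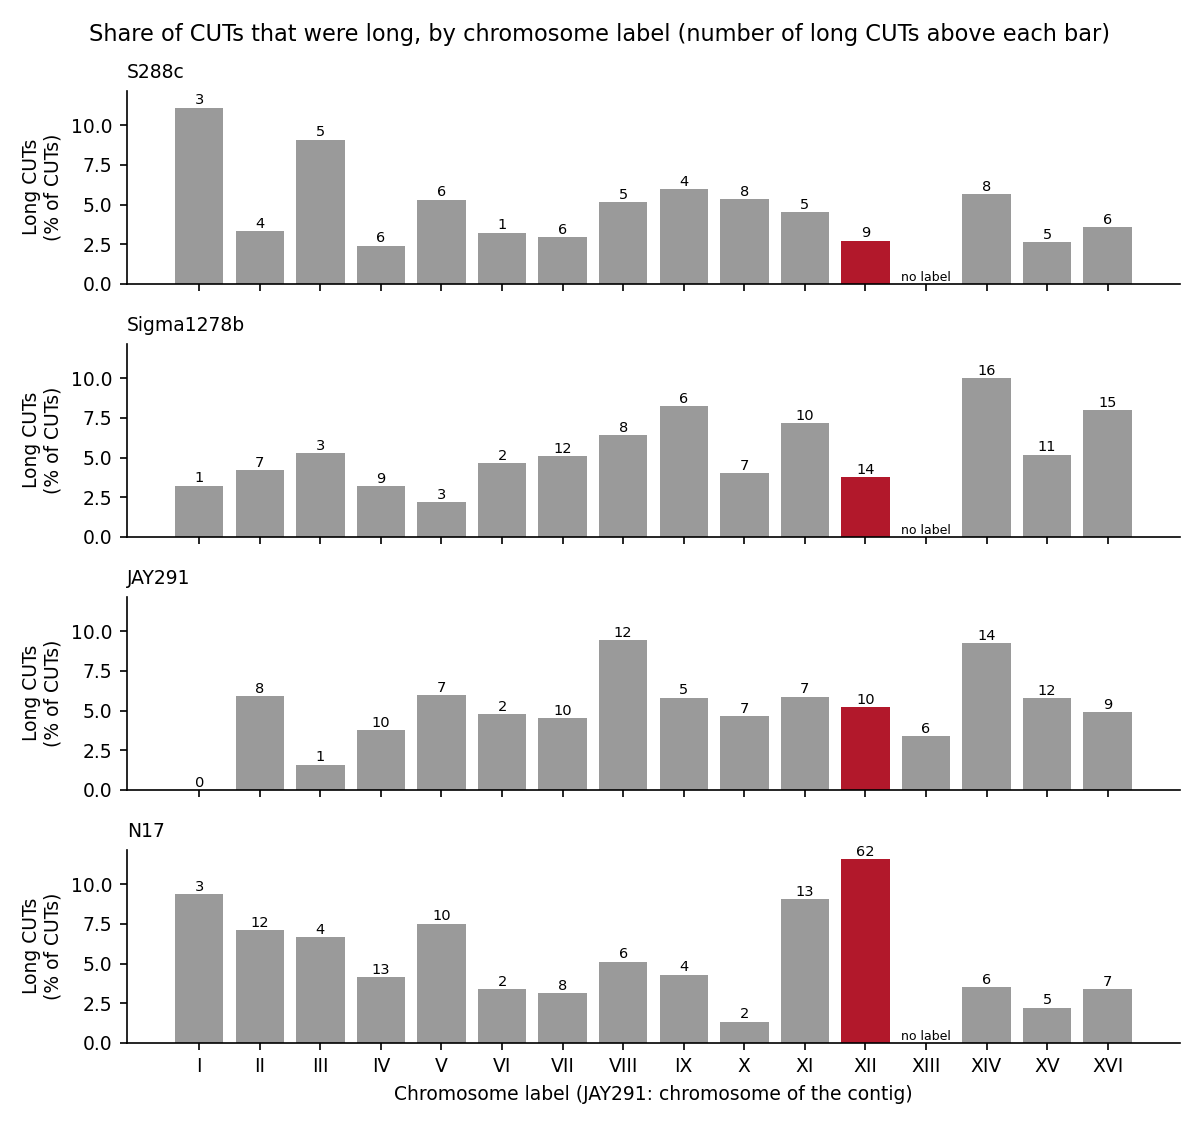
Percentage of the CUTs under each chromosome label that were long, by strain, with the number of long CUTs above each bar and the chrXII label in red. In N17 the chrXII label holds 62 long CUTs, 11.6% of its CUTs.

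Within the label, 46 of the 62 lay between 500 and 900 kb, a stretch chosen after its values were seen. Their median coverage was 39.2 in rrp6Δ and 14.4 in WT, and the 111 long CUTs elsewhere in N17 had 6.96 in rrp6Δ and 1.55 in WT. The median ratio was 2.51 in the stretch and 3.10 elsewhere. A WT coverage of 10 or more was found in 26 of the 46 (56.5%) and in 21 of the 111 (18.9%), and 13 of the 46 had a ratio under 2 (28.3%). Among shorter CUTs, a WT coverage of 10 or more was found in 47 of 221 in the stretch (21.3%) and in 7.49% outside it, and a ratio under 2 in 34 of the 221 (15.4%). The 221 shorter CUTs of the stretch were less extreme, with a median coverage of 9.94 in rrp6Δ and 1.04 in WT and a ratio of 3.35. In the stretch 5 of the 46 long CUTs were among the conserved CUTs described below (10.9%), against 28.1% of its shorter CUTs.

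Single members of the stretch show the pattern. CUT9257 was 6514 nt long at 660728 to 667241 of the label, with 672 in rrp6Δ and 394 in WT, a ratio of 1.70. CUT9254 was 3971 nt long, with 624 in rrp6Δ and 418 in WT, a ratio of 1.49. CUT9070 had 49.8 in rrp6Δ and 36.5 in WT, a ratio of 1.35. Others in it had a high ratio, among them CUT9221, with 283 in rrp6Δ and 6.71 in WT and a ratio of 36.8. Of the 8 N17 long CUTs of the label that had a JAY291 partner among the conserved CUTs, all 8 partners lay on contigs of chromosome XII. The label, the assembly and the strain cannot be told apart as the place where the cluster arises.

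The longest CUT of the series was CUT9225 of N17, 6547 nt on the minus strand of chromosome XVI at 510 to 7056, close to the chromosome's first base. It had 305 in rrp6Δ and 22.2 in WT, a ratio of 13.2. CUT9047, 3201 nt, ran on the opposite strand at 3874 to 7074 with 44.7 in rrp6Δ and 1.79 in WT, a ratio of 16.4, and shared 3183 bp with it. CUT8747 and CUT7052 also lay opposite CUT9225, at 16.9 and 2.76 in rrp6Δ and 0.570 and 0.168 in WT. The fourth longest, CUT9373 on chromosome V, was 3219 nt long with 7.02 in rrp6Δ and 1.43 in WT.

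The highest N17 ratios were 38.4 for CUT9198 (200.2 in rrp6Δ and 4.24 in WT), 36.8 for CUT9221 and 34.2 for CUT9261 (854 in rrp6Δ and 24.0 in WT). The lowest were 1.10 for CUT9132 (83.9 in rrp6Δ and 76.2 in WT), 1.35 for CUT9070 and 1.39 for CUT8154 (7.93 in rrp6Δ and 5.44 in WT). CUT9132 was 2992 nt long in N17, and its conserved partners were 1012 nt in Sigma1278b and 1013 nt in JAY291, where the ratios were 4.28 and 4.12. CUT8154 was 1507 nt long, with partners of 322 nt in Sigma1278b and 291 nt in JAY291 whose ratios were 4.94 and 6.52.

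In Sigma1278b the 5 longest members were CUT2994 (4060 nt), CUT4432 (3980 nt), CUT2814 (3386 nt), CUT4356 (3224 nt) and CUT2697 (3177 nt). Their coverage differed widely, with 4.98 in rrp6Δ and 1.39 in WT for CUT2994 and 125 in rrp6Δ and 47.7 in WT for CUT4356. CUT4432, on the plus strand of the chrXII label, had 104 in rrp6Δ and 9.80 in WT. The highest ratios were 21.8 for CUT4380 (878 in rrp6Δ and 39.4 in WT), 13.2 for CUT4133 and 11.9 for CUT4057. CUT4380 had the highest rrp6Δ coverage of any long CUT of the series. The lowest ratios were 1.32 for CUT3137, 1.76 for CUT4235 and 2.08 for CUT2409.

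In JAY291 the 5 longest members were CUT6294 (4057 nt), CUT6647 (3716 nt), CUT5842 (3622 nt), CUT6059 (3352 nt) and CUT6359 (3316 nt). CUT6294 began 268 bases from the start of its contig, and a contig's end can cut a CUT short. The highest ratios of the 120 members were 49.3 for CUT6601 (77.4 in rrp6Δ and 0.591 in WT), 30.9 for CUT6510 (38.4 in rrp6Δ and 0.276 in WT) and 25.3 for CUT6433 (29.3 in rrp6Δ and 0.195 in WT). The ratio of CUT6601 was the highest of any long CUT in the 4 strains, and its interval began 105 bases into a contig. The lowest ratios were 2.08 for CUT6161, 2.19 for CUT6554 and 2.21 for CUT5630, so no JAY291 member was under 2.

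The share of long CUTs with a CUT on the opposite strand differed by strain. A shared base with such a CUT was found in 11 of 81 long CUTs in S288c (13.6%), where 10% of all CUTs had one. It was found in 21 of 124 in Sigma1278b (16.9%), against 12.9% of all CUTs. In both strains the excess was not seen without the mixed label, where the shares were 9.72% of long and 9.26% of other CUTs in S288c, and 11.8% of long and 11.7% of other CUTs in Sigma1278b. In JAY291, which has no such label, it was found in 25 of 120 (20.8%), against 11.2% of all CUTs. In N17 it was found in 71 of 157 (45.2%), against 21.7% of all CUTs, and without chrXII in 28 of 95 long (29.5%) and 15.6% of other CUTs. In the stretch between 500 and 900 kb of the label it was found in 36 of 46 long CUTs and 52.5% of the shorter ones.

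Per length the order was the other way round, as a long interval offers more room for an overlap. Long CUTs met 0.0825 opposite-strand CUTs per kb in S288c, 0.0849 in Sigma1278b, 0.111 in JAY291 and 0.293 in N17, and the other CUTs met 0.210, 0.252, 0.226 and 0.389 per kb in the same strains. The opposite-strand CUT lay wholly inside the long one in 6 of 81 members of S288c, 13 of 124 of Sigma1278b, 12 of 120 of JAY291 and 28 of 157 of N17. These are 7.41%, 10.5%, 10% and 17.8% of the long CUTs, against 1.57%, 1.90%, 1.77% and 3.15% of the other CUTs of the same strains, whose shorter intervals have less room to hold another CUT. Its median length was 531 nt in S288c, 375 nt in Sigma1278b, 566 nt in JAY291 and 963 nt in N17.

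Long CUTs that faced another long CUT were rare outside N17. They numbered 2 of 81 in S288c, none of 124 in Sigma1278b, 4 of 120 in JAY291 and 21 of 157 in N17. Among other CUTs, 12 of 1974 in S288c, 21 of 2269 in Sigma1278b, 23 of 2148 in JAY291 and 73 of 2504 in N17 faced a long CUT. The N17 share was thus the highest among shorter CUTs too. Of the 21 in N17, 15 lay in the stretch between 500 and 900 kb of the chrXII label. CUT8955 and CUT8998 in that stretch shared 1660 bp, the whole of CUT8998, and had 30.2 and 36.0 in rrp6Δ and 12.7 and 1.01 in WT. In JAY291 CUT6294 and CUT4865 shared 2108 bp. Members with and without an opposite-strand CUT had like median ratios, 3.05 and 3.02 in S288c, 3.61 and 3.498 in Sigma1278b, 4.06 and 4.26 in JAY291, and 2.79 and 2.96 in N17.

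The study's alignment paired 855 CUTs of Sigma1278b, JAY291 and N17 that it found in all 4 strains, and these pairs allow the length of 1 CUT to be followed across strains. The study's list headed S288c holds Sigma1278b CUTs and was read as Sigma1278b, so S288c CUTs were not followed. Among the 855, 6.78% were long in Sigma1278b (58), 6.2% in JAY291 (53) and 5.73% in N17 (49). In all, 103 were long in at least 1 of the 3 strains, 59 of them in 1 strain only, 31 in exactly 2 and 13 in all 3.

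The length of a long CUT was shared most between Sigma1278b and JAY291. The JAY291 partners of the 58 long Sigma1278b CUTs had a median length of 1607 nt (95% order-statistic interval 1380 to 1807), and 35 of them (60.3%) were long. Their N17 partners had a median length of 1116 nt (763 to 1364), and 19 (32.8%) were long. The Sigma1278b partners of the 53 long JAY291 CUTs had a median of 1815 nt, with 35 (66.0%) long, and their N17 partners had a median of 1135 nt, with 16 (30.2%) long. For the 49 long N17 CUTs the median was 1224 nt in Sigma1278b and 1013 nt in JAY291, with 19 and 16 long partners. Partners of the remaining conserved CUTs had medians between 486 and 549 nt.

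**Figure D5:**
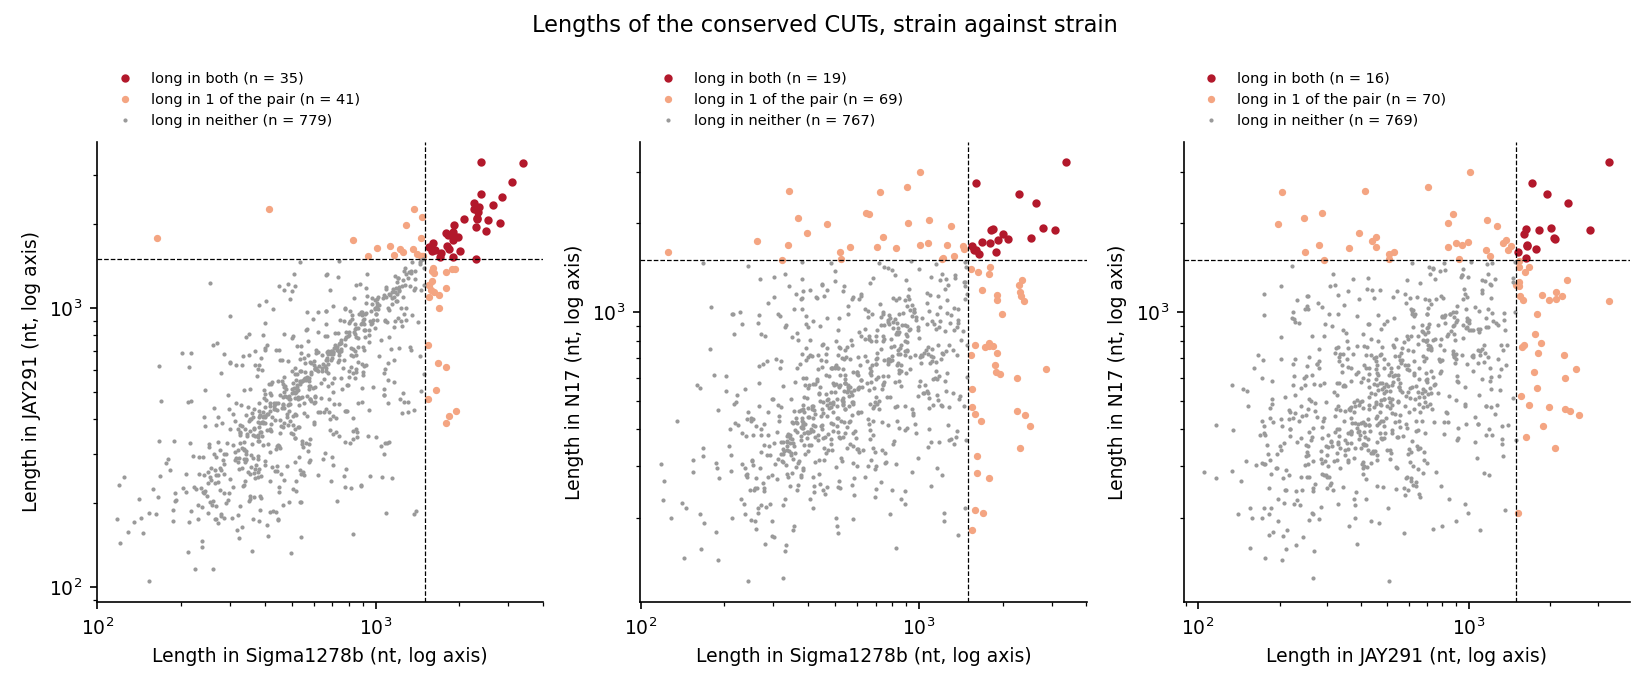
Length of each of the 855 conserved CUTs in 1 strain against its length in another, on log axes, with dashed lines at 1500 nt and CUTs long in both strains in red. Of the points long in Sigma1278b, 35 are also long in JAY291 and 19 in N17.

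The conserved CUT with the largest summed length was CUT2814 of Sigma1278b, with CUT5511 of JAY291 and CUT9373 of N17. It lay on chromosome V in all 3 strains and measured 3386, 3294 and 3219 nt, with 4.33, 7.26 and 7.02 in rrp6Δ and 0.554, 0.489 and 1.43 in WT. Its length varied little while its ratio was 3.43, 5.55 and 3.31. The next were CUT3550 with CUT6031 and CUT6993 on chromosome IX (3084, 2817 and 1894 nt) and CUT3034 with CUT6709 and CUT9372 on chromosome III (2633, 2335 and 2355 nt). CUT3686 with CUT6032 and CUT9367 (2289, 1956 and 2526 nt) and CUT4317 with CUT6579 and CUT8635 (2793, 2010 and 1930 nt) both lay on chromosome XI. CUT4317 had the highest coverage of these 5, with 52.2 in rrp6Δ and 7.37 in WT in Sigma1278b, and its ratios were 6.35 in Sigma1278b, 12.2 in JAY291 and 7.28 in N17.

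Over the 13 CUTs long in all 3 strains the median ratio was 3.99 in Sigma1278b, 5.14 in JAY291 and 3.31 in N17. Their median WT coverage was 0.616 in Sigma1278b, 0.958 in JAY291 and 0.549 in N17, so the high WT coverage of N17 long CUTs was not seen among them. Conserved long CUTs had a median ratio of 4.31 in Sigma1278b, 5.06 in JAY291 and 3.47 in N17, each above that of all long CUTs of the strain.

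Some conserved CUTs changed length greatly. CUT7201 of N17 was 1606 nt long, with partners of 125 nt in Sigma1278b and 249 nt in JAY291. CUT6500 of JAY291 was 1787 nt long, with partners of 164 nt in Sigma1278b and 552 nt in N17, and CUT2926 of Sigma1278b was 1554 nt long, with a partner of 183 nt in N17. These 3 were taken for the shortest partner among CUTs long in 1 strain only. Whether the long call of any of these 3 stands for several joined CUTs was not tested here. Joining same-strand CUTs within 1000 bp, in place of the 450 bp the authors used, would raise the number of long CUTs to 182 in S288c, 265 in Sigma1278b, 226 in JAY291 and 311 in N17.

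The members just inside and just outside the length rule varied widely in coverage. In S288c CUT1183 measured exactly 1500 nt, lay antisense to 43.7% of the helicase gene ECM32 and had 6.63 in rrp6Δ and 0.522 in WT, and CUT2010 over RPL18B measured 1503 nt and had the highest coverage of the 81 in both genotypes, 368 in rrp6Δ and 125.4 in WT. Just outside were CUT2044 with 1498 nt (7.40 in rrp6Δ and 1.43 in WT) and CUT1919 with 1496 nt (26.2 in rrp6Δ and 12.2 in WT). In Sigma1278b CUT2430 (1501 nt, ratio 3.08) and CUT3898 (1507 nt, ratio 4.16) were just inside, and CUT3629 (1498 nt, ratio 6.71) and CUT2230 (1494 nt, ratio 2.71) just outside. In JAY291 CUT5789 (1502 nt, ratio 4.07) and CUT6065 (1503 nt, ratio 4.78) were inside, and CUT5294 (1494 nt, ratio 3.995) and CUT6707 (1487 nt, ratio 6.90) outside. In N17 CUT7647 (1501 nt, ratio 3.19) and CUT9208 (1504 nt, ratio 2.14) were inside, and CUT8123 (1499 nt, ratio 3.43) and CUT7887 (1496 nt, ratio 3.31) outside. CUT9208 had 223.6 in rrp6Δ and 104 in WT, against medians of 11.8 in rrp6Δ and 2.12 in WT for all N17 long CUTs.

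Long CUTs were more frequent among the CUTs at the end of each table, which stand outside its order of rising rrp6Δ coverage. There 7 of 43 CUTs were long in S288c (16.3%), 12 of 65 in Sigma1278b (18.5%), 11 of 54 in JAY291 (20.4%) and 14 of 95 in N17 (14.7%). Among the CUTs in order, 3.68% were long in S288c, 4.81% in Sigma1278b, 4.92% in JAY291 and 5.57% in N17. The study edited some CUTs by hand and brought back some that its filters had removed, and the tables do not mark which these are.

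Long CUTs were few, yet they took up a large share of the annotated bases. They held 15.4% of all CUT nucleotides in S288c, 17.5% in Sigma1278b, 18.95% in JAY291 and 19.25% in N17. In S288c the minus strand carried 48 long CUTs and the plus strand 33, and all S288c CUTs numbered 1055 on the minus and 1000 on the plus strand. Long CUTs on the minus and plus strands numbered 62 and 62 in Sigma1278b, 59 and 61 in JAY291, and 83 and 74 in N17.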

How the data were processed

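The authors mapped strand-specific reads with Bowtie 0.12.7, keeping unique matches, and used bedtools 2.16.2, per the labels and the study's methods. They called CUTs with a hidden Markov model on the rrp6Δ over WT fold change, merged calls within 450 bp, required at least 100 nt and edited some by hand. The deposited coverage values are a signal, corrected for mappability and sequence bias, scaled to mapped reads and averaged by the authors over nucleotides and both replicates. The fold change column holds the authors' own comparison and was not used. Conserved pairs and primers were read from the study's supplementary material, and all 855 listed conserved CUTs matched the deposited entries in each of the 3 strains. The match to Sigma1278b is that of the list headed S288c. CUTs were paired across strains by their place in the lists.

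Lengths are Stop minus Start, and printed starts are 1-based. The ratio used a pseudocount of 1. S288c genes and sequences are from RefSeq R64, the build of the S288c table. A coding gene's span includes introns, and a CUT covered it at 50% or more of that span. Medians carry 95% order-statistic intervals, which describe CUTs and not replicates. Python 3.11.15, pandas 2.3.3, NumPy 2.4.6, SciPy 1.17.1 and matplotlib 3.10.9 were used, and the overlap, merging and interval functions were tested on simulated data.

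Members and gene lists were chosen with earlier results of these data known. Named in S288c were the 10 longest members, the 5 highest and 5 lowest ratios, the member over LYS2, those over a listed gene and those beside the length limit. In other strains they were the 5 longest, the 3 highest and 3 lowest ratios and 2 on each side of the limit. Of CUTs long in all of Sigma1278b, JAY291 and N17, the 5 with the largest summed length were named. Other members were named after their values were seen. Alternatives covered the length limit, merging, labels, coverage order, low coverage, conservation, pseudocount and overlap. The motif window of 1 further CUT is not reported here.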

Additional observations from a re-analysis of the deposited data

How the results depend on the processing

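Of 110 recomputed values over 16 results, 67 kept within the interval, or for counts within 1.5 times, of the value reported, and 43 moved. At 1000 nt or more there were 236 long CUTs in S288c, 354 in Sigma1278b, 318 in JAY291 and 410 in N17, with 142 S288c CUTs antisense to 160 genes. At 2000 nt there were 32, 45, 51 and 65, with 22 S288c CUTs antisense to 30 genes and an opposite-strand share of 58.5% in N17. With a pseudocount of 0.1 the median ratio was 5.19 in S288c, 5.69 in Sigma1278b, 7.19 in JAY291 and 4.31 in N17. Counting only opposite-strand CUTs wholly inside gave 7.41%, 10.48%, 10% and 17.8%. Merging same-strand neighbours within 1000 bp gave 182 long CUTs in S288c, 265 in Sigma1278b, 226 in JAY291 and 311 in N17, an opposite-strand share of 26.8% in Sigma1278b and a median ratio of 3.45 in N17. Conserved CUTs alone left 58 in Sigma1278b, 53 in JAY291 and 49 in N17, with median ratios of 4.31, 5.06 and 3.47 and opposite-strand shares of 8.62%, 11.3% and 32.7%. Without the chrXII label N17 had 95 long CUTs and a share of 29.5%. Leaving out only the stretch between 500 and 900 kb of the label, an alternative chosen after seeing the data, gave a share of 31.5%. Whole coding sequences were covered antisense by 32 S288c CUTs, over 36 genes. With a partner limit of 1000 nt, 75 conserved CUTs counted as long in more than 1 strain, against 44. Without the CUTs in sense over a gene the motif density was 26.6 per kb.

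The label alternative was not run for JAY291, which is listed by contig. Leaving out CUTs outside the coverage order, leaving out the lowest 25% of rrp6Δ coverage, an overlap of 100 bp, leaving out CUT1734, a limit of 25% of the gene and leaving out genes with no standard name moved no result by these criteria. No paired analysis was possible because the authors had averaged the replicates before deposit, and for the same reason no replicate could be left out. The depth behind a coverage value is unknown here.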
